A study of Mus musculus with 10 samples.

Results

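The miRNAs described here are those encoded antisense to Rtl1 in the imprinted Dlk1-Dio3 domain of mouse chromosome 12. They were chosen by name, as every row of the table called miR-127, miR-136, miR-431, miR-432, miR-433 or miR-434, with either arm. This gave 5 of the 285 rows, which were miR-127, miR-136, miR-433, miR-434-3p and miR-434-5p, from 4 of the 6 names. The other 2 names, miR-431 and miR-432, were not analysed here. Small RNA was sequenced in 10 liver libraries from mice aged 14 weeks, 5 from Tsc1 mutants (the L-Tsc1KO line of the labels) and 5 from littermate controls. Tsc1 is a subunit of the TSC complex, which restrains mTORC1 signalling. The labels state no other allele or agent for either group, with the driver of the deletion, strain and sex not given in the sources used here. They do not say whether a library is 1 animal or a pool.

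In the Dlk1-Dio3 domain, protein-coding genes such as Dlk1, Rtl1 and Dio3 are expressed from the paternal chromosome, and the long non-coding RNAs and miRNAs from the maternal one. Rtl1 encodes a protein derived from a retrotransposon that is needed for the fetal capillaries of the mouse placenta. The miRNAs studied here are cut from a maternal transcript that runs opposite to the Rtl1 open reading frame, so each pairs with Rtl1 messenger RNA along its whole length and can direct its cleavage in the mouse embryo. The locus is active in fetal and placental tissue and in adult brain and muscle, and is expressed at low levels in adult liver.

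The mature sequences are shown because their strand and their pairing with Rtl1 define the group. They are RefSeq entries on the plus strand of GRCm38.p6, 5′ to 3′, with the seed (bases 2 to 8) in capitals. The deposited names give an arm for miR-434 only, so both arms are printed for each of the other miRNAs, and which arm their values count is not stated.
miR-433-5p: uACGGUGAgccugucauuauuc
miR-433-3p: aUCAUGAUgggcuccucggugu
miR-127-5p: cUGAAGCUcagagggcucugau
miR-127-3p: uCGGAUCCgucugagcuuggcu
miR-434-5p: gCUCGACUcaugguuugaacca
miR-434-3p: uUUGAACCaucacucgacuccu
miR-136-5p: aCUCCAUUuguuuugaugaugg
miR-136-3p: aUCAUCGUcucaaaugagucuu

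All 8 arms have different seeds. In the RefSeq table of 1738 mouse mature sequences, 0 others carry any of them. Of the 280 other rows of the table, 234 had a RefSeq sequence by name, and 0 of these 234 shared a seed with a member arm.

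The hairpins lie in the order miR-433, miR-127, miR-434 and miR-136 within 3674 bases. In GRCm38 they occupy chr12:109591715-109591838 (miR-433), chr12:109592846-109592915 (miR-127), chr12:109594506-109594599 (miR-434) and chr12:109595327-109595388 (miR-136). All 4 are on the plus strand, inside the coding part of exon 2 of Rtl1, which is read from the minus strand and whose coding sequence spans 5232 bases at chr12:109590172-109595403. Gaps of 1007, 1590 and 727 bases separate neighbouring hairpins. The hairpin of miR-136 also overlaps Mir3071 on the opposite strand, and whether the authors counted by strand is not stated.

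Each of the 8 arms had exactly 1 fully complementary site in the Rtl1 transcript of 6358 bases, from position 164 for miR-136-3p to position 3801 for miR-433-5p. By name, 239 of the 285 rows had a RefSeq mature sequence, and 5 of these, the members, had such a site. The sites of miR-434, whose arms are both in the table, and of miR-127, the most abundant member, are shown as Rtl1 sense sequence with the part that pairs with the seed in capitals.
Rtl1 site of miR-434-5p: tggttcaaaccatgAGTCGAGc
Rtl1 site of miR-434-3p: aggagtcgagtgatGGTTCAAa
Rtl1 site of miR-127-5p: atcagagccctctgAGCTTCAg
Rtl1 site of miR-127-3p: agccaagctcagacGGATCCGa

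Over the 285 rows of the table, the libraries held between 6228497 and 12129069 miRNA reads. Shares of all miRNA reads refer to these totals. These depths were recovered from the values, all of which were whole multiples of 1 step per library, taken as 1 read. Too few low values were left for a further check of this step. Read numbers and the intervals drawn from them rest on it. Levels are given as normalised reads, and 1 read was worth between 0.711 and 1.68 of them. The hepatocyte miRNA miR-122, the defining marker of the labelled tissue, took 32.9 ± 5.30% of control reads and 29.3 ± 4.52% of mutant reads (SD, n = 5 per genotype). Of 45 pairs of libraries, 0 held identical values and 0 differed by no more than sampling noise in a chi-square test. No check of the genotype labels by Tsc1 messenger RNA was made, since that RNA was not analysed here. The labels do not say how replicates were collected, so p-values measure the spread between these libraries, which may be technical. Library numbers were consecutive within each genotype, and any order that followed them cannot be told apart from genotype.

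All 5 members were higher in Tsc1 mutant liver. Their log2 fold changes ran from 1.70 to 2.84, with a median of 2.62, or 6.15-fold. Each of the 5 passed an adjusted p of 0.05 as higher (limma on log2 of the normalised value plus 1, adjusted over all 285 rows), where 10.9% of all rows did so. For 4 of 5 members all mutant values exceeded all control values, which 10.2% of all rows showed. None of the 5 had all mutant values below all control values, which 2.46% of all rows showed, and none was called lower, as 2.11% of all rows were. The median log2 fold change over all 285 rows was -0.06. Fold changes are on the scale of log2(value + 1), which understates the change of rows with low values. With 0.5 added in place of 1, miR-136 had a log2 fold change of 2.91 and miR-433 of 1.76. In RNA from whole liver, a change in the number of cells of a type and a change in RNA per cell cannot be told apart.

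The most abundant member was miR-127, which in human cancer cells is known to target BCL6. Control libraries had 918, 2038, 1147, 1411 and 1185 normalised reads of miR-127 in replicates 1 to 5. Tsc1 mutant libraries had 9883, 8074, 8647, 8799 and 5227. The lowest mutant, replicate 5, was above the highest control, replicate 2, so the groups did not overlap. The means were 1340.0 ± 427 and 8126 ± 1748 normalised reads (SD, n = 5 each). The log2 fold change was 2.62 ± 0.23 (SE, limma adjusted p = 1.37e-05).

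By mean level miR-127 stood at rank 93 of 285 in controls, between miR-146b at 1412 and miR-484 at 1339.6 normalised reads. It stood at rank 49 in mutants, between miR-221 at 8808 and miR-27a at 7680.2. As a share of all miRNA reads miR-127 made up 0.0142 ± 0.00537% in control livers and 0.0883 ± 0.0195% in mutant livers (SD over 5 libraries).

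**Figure D1:**
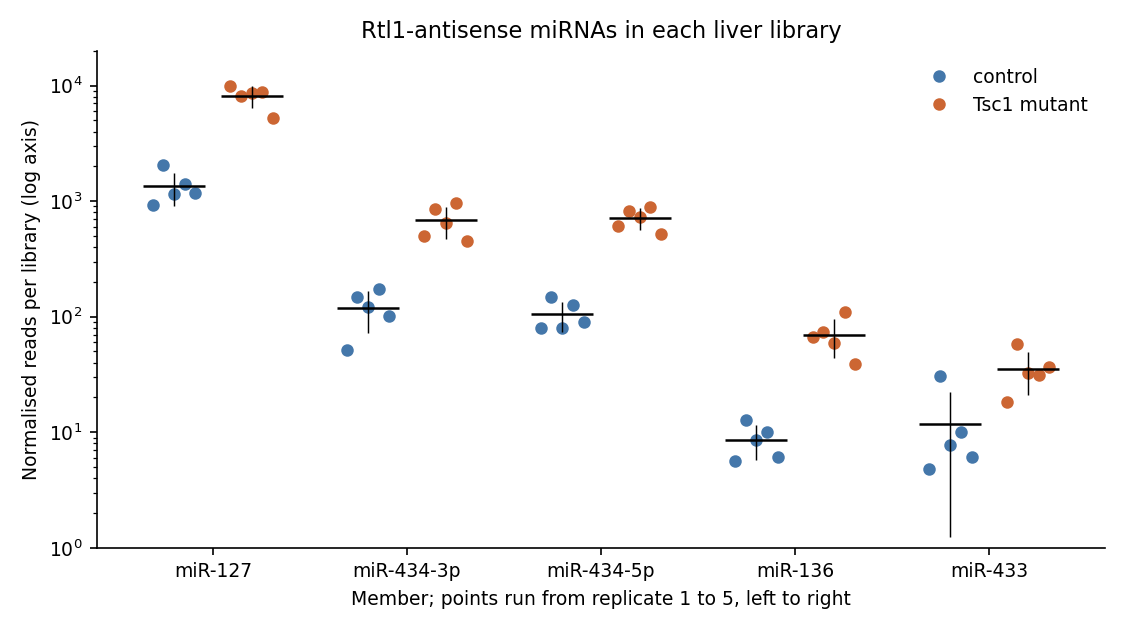
Normalised reads of each member in each library on a log axis, with controls in blue and Tsc1 mutants in orange. Horizontal lines are group means and vertical lines the SD (n = 5 each). Only for miR-433 do the groups overlap, where control replicate 2 at 30.6 lies above mutant replicate 1 at 18.2.

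The miR-434 hairpin gave the next levels, and it is the only member hairpin with both arms in the table. Control replicates 1 to 5 had 51.1, 147, 122.4, 175 and 101 normalised reads of miR-434-3p. Mutant replicates 1 to 5 had 503, 847, 649.8, 955 and 454. All mutants exceeded all controls, and the lowest values of the groups were in control replicate 1 and mutant replicate 5. The log2 fold change of miR-434-3p was 2.56 ± 0.34 (SE, limma adjusted p = 0.000202).

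For miR-434-5p the control replicates 1 to 5 had 79.9, 147, 79.3, 126 and 90.3 normalised reads. Mutant replicates 1 to 5 had 613, 820.01, 726, 891 and 522. Again the groups did not overlap, with mutant replicate 5 the lowest mutant and control replicate 2 the highest control. The log2 fold change of miR-434-5p was 2.78 ± 0.23 (SE, limma adjusted p = 1.37e-05), and its limma p was the smallest of the 285 rows.

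Expression of miR-136 was low in controls, at 5.59, 12.8, 8.62, 10.1 and 6.16 normalised reads in replicates 1 to 5, which is 6 to 18 reads per library. Mutant replicates 1 to 5 had 66.9, 73.003, 58.9, 109 and 38.7 normalised reads, from 39 to 86 reads. Every mutant was above every control, and the highest, replicate 4, stood well above the lowest, replicate 5. The log2 fold change of miR-136 was 2.84 ± 0.31 (SE, limma adjusted p = 5.96e-05), the highest among the members in this setting. With 5 added in place of 1 it was 2.40, below miR-434-5p at 2.73, miR-127 at 2.62 and miR-434-3p at 2.51. By mean level miR-136 ranked 277 of 285 in controls and 195 in mutants.

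The smallest log2 fold change among the members was that of miR-433, which in human cells is known to target FGF20. Control replicates 1 to 5 had 4.79, 30.6, 7.76, 10.1 and 6.16 normalised reads. Mutant replicates 1 to 5 had 18.2, 57.7, 32.6, 31.5 and 36.7. Control replicate 2 exceeded mutant replicate 1, and 4 of 5 mutants were above every control. In reads these are 6 to 43 per control library and 21 to 68 per mutant library.

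The log2 fold change of miR-433 was 1.70 ± 0.46 (SE), and its adjusted p by limma was 0.0300. This call did not hold when 1 of 8 libraries was left out. The limma adjusted p was then lowest without control replicate 4, at 0.0563, and highest when Tsc1 mutant replicate 2 was omitted, at 0.0811. It was also lost without control replicate 1 (0.0573), 3 (0.0765) or 5 (0.0755), and without mutant replicate 3 (0.0630), 4 (0.0641) or 5 (0.0683), as limma adjusted p. Without control replicate 2 the call was kept, and the log2 fold change was 2.10.

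**Figure D2:**
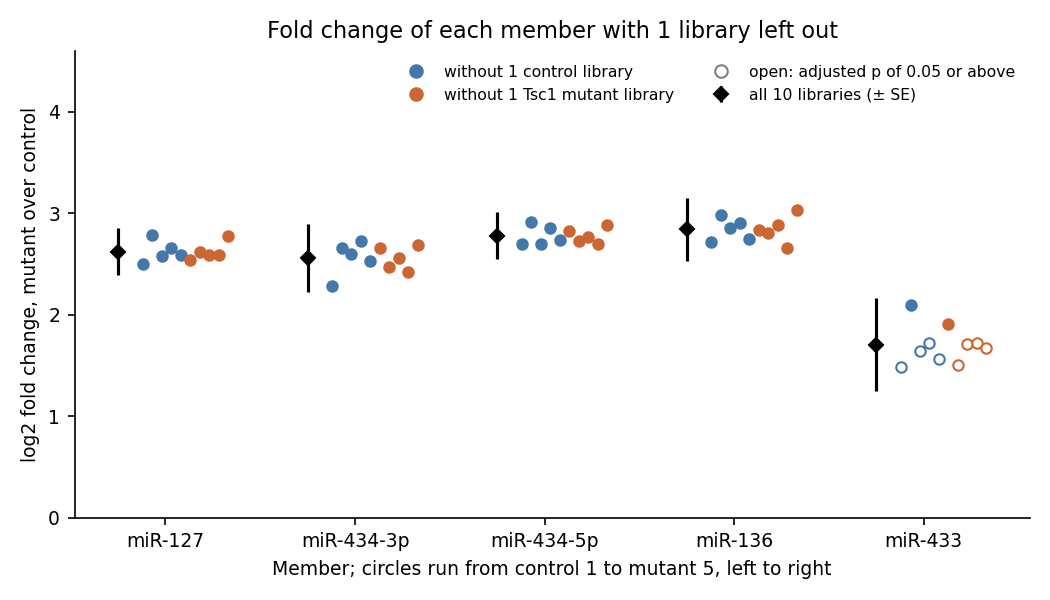
Log2 fold change of each member, mutant over control, with all 10 libraries (diamonds, ± SE) and with 1 library left out at a time (circles, coloured by the group of that library). Open circles mark an adjusted p of 0.05 or above, which occur for miR-433 in 8 of 10 cases and for no other member.

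Summed, the members reached 1584 ± 502 normalised reads in control livers and 9627 ± 1935 in mutant livers (SD, n = 5 per genotype). Control sums were 1059.6, 2375, 1366, 1733 and 1388 in replicates 1 to 5, and mutant sums were 11084, 9872, 10114, 10785 and 6278.5. The groups did not overlap. On the log2 scale the difference of the sum was 2.63 ± 0.25 (SE), or 6.18-fold, given without a test because it is a score over chosen rows.

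The sum took 0.0168 ± 0.00621% of miRNA reads in control livers and 0.105 ± 0.0215% in mutant livers (SD over 5 libraries). Control replicate 2 had the highest control share, 0.0275%, with an exact 95% binomial interval from 0.0266 to 0.0285%. Mutant replicate 5 had the lowest mutant share, 0.0673%, with an interval from 0.0657 to 0.0690%. These intervals cover counting error only, since reads without molecular identifiers are not independent molecules.

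The shares of the members in their sum overlapped between genotypes for all 5. Of the summed members, miR-127 took 84.7 ± 2.02% in controls and 84.3 ± 3.16% in mutants. The arms of miR-434 took 7.47 ± 2.11% (3p) and 6.67 ± 0.730% (5p) in controls, and 7.13 ± 1.75% and 7.52 ± 1.21% in mutants. The share of miR-136 was 0.545 ± 0.0698% in controls and 0.711 ± 0.179% in mutants, and that of miR-433 was 0.667 ± 0.353% and 0.390 ± 0.188% (SD over 5 libraries throughout).

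Relative to the sum of the other members, each of miR-127, miR-136, miR-434-3p and miR-434-5p moved by no more than 0.22 on the log2 scale between genotypes. Those differences were -0.02 ± 0.19 for miR-127, 0.22 ± 0.16 for miR-136, -0.07 ± 0.27 for miR-434-3p and 0.16 ± 0.14 for miR-434-5p (SE). For miR-433 the difference was -0.93 ± 0.42 (SE). These ratios were not tested, and miR-433 is singled out after its values were seen.

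**Figure D3:**
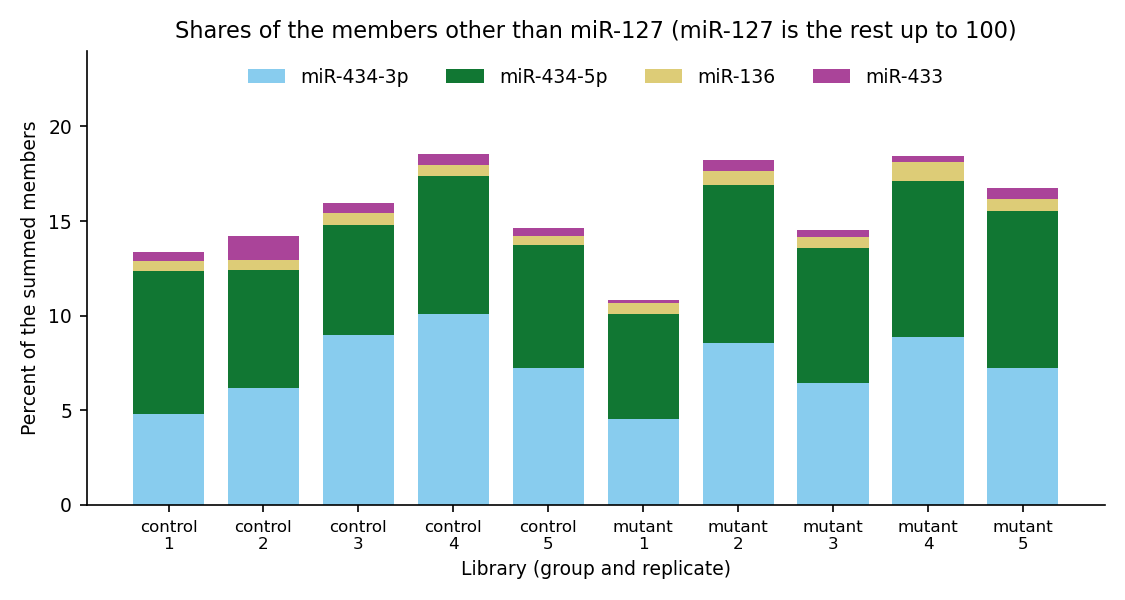
Percent of the summed members taken by each member other than miR-127, stacked for each library. miR-127 is the rest up to 100 percent. Control replicate 1 and mutant replicate 1 have the smallest miR-434-3p shares of their groups, at 4.83% and 4.54%, and control replicate 2 the largest miR-433 share, at 1.29%.

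Whether the choice between the arms of miR-434 differed was asked with the ratio of 5p to 3p within each library, from which library scaling cancels. The hairpin is shown with its 5p and 3p arms in capitals, in that order.
Mir434 hairpin: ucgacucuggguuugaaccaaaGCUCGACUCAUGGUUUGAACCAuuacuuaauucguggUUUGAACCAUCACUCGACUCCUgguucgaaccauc

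The arms share the runs uuugaacca, of 9 bases, and cucgacuc, of 8 bases. In controls the ratio of 5p to 3p was 1.56, 1.00, 0.648, 0.721 and 0.898 in replicates 1 to 5. In mutants it was 1.22, 0.968, 1.12, 0.932 and 1.15. The ratio lay between 0.648 and 1.56 in every library, and the groups overlapped. On the log2 scale the ratio was -0.12 ± 0.49 among controls and 0.10 ± 0.17 among mutants (SD over 5 libraries). Mutant minus control, this came to 0.22 ± 0.23 (SE), with a 2-sided exact permutation p of 0.373 and an adjusted p of 0.893 over the 25 miRNAs listed with both arms.

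Of these 25 miRNAs, 0 (0%) passed an adjusted p of 0.05 in the exact permutation test, and 0 had an unadjusted p below 0.05. The differences ran from -0.48 to 0.92, and that of miR-434 ranked 12 of 25 by size. The smallest p this design allows is 0.00794. A single miRNA at that value could not pass 0.05 after adjustment over 25 miRNAs, unless several others reached it too. The adjusted p therefore could not detect a change in miR-434 alone. In both genotypes the replicate 1 library had the highest ratio of 5p to 3p. These libraries also held the lowest miR-434-3p shares of their groups. Without both of them the difference in log2 ratio was 0.36, with an exact permutation p of 0.0857 and an adjusted p of 0.667. Without control replicate 1 alone it was 0.41, with an exact permutation p of 0.0397 and an adjusted p of 0.397. Leaving out any other single library gave exact permutation p from 0.333 to 0.675, so the unadjusted result depended on control replicate 1.

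**Figure D4:**
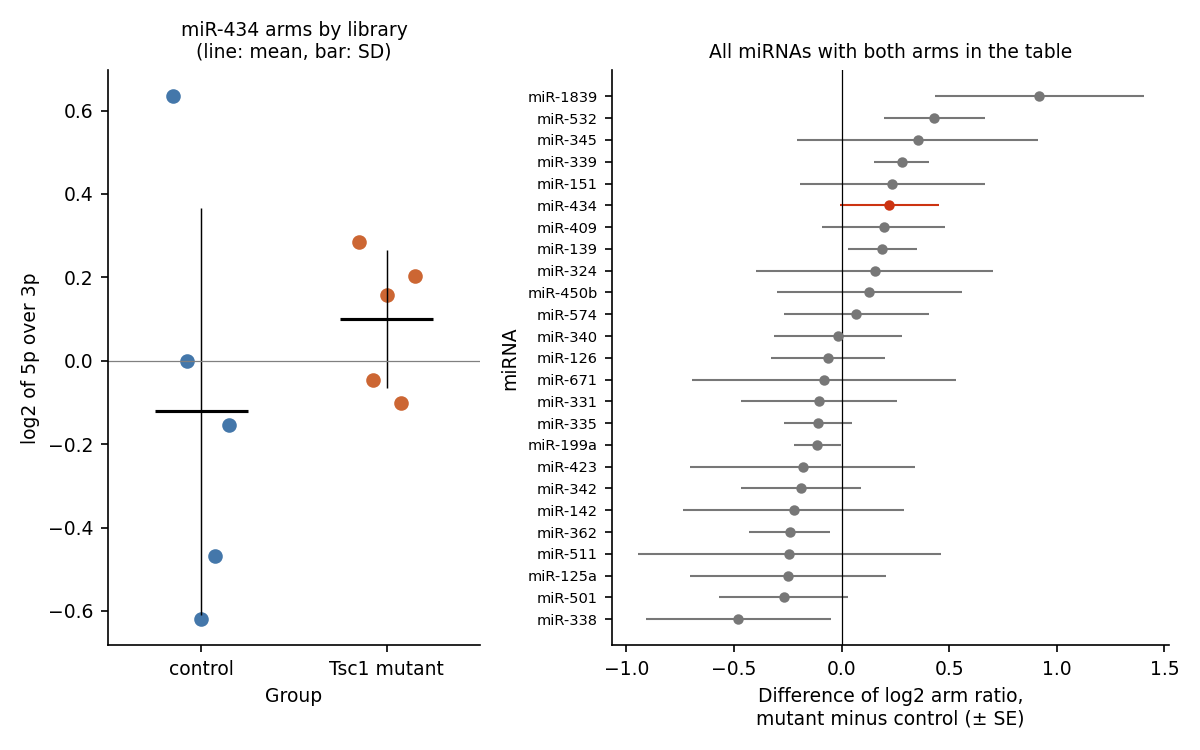
Left, log2 ratio of miR-434-5p to miR-434-3p in each library, with mean and SD (n = 5 each). Right, the difference of this log2 ratio between genotypes (± SE) for all 25 miRNAs with both arms in the table, with miR-434 in red at 0.22.

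The members' deviations were positively correlated between libraries of the same genotype. With genotype means removed, Pearson's r between pairs of members over the 10 libraries ran from 0.48 (miR-136 with miR-433) to 0.84 (miR-136 with miR-434-5p), with a median of 0.75. The arms of miR-434 had r = 0.80. All members share libraries, depth and scaling, so these values are descriptions.

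Among controls, 4 of 5 members were highest in replicate 2, and 4 of 5 were lowest in replicate 1. Among mutants, 4 of 5 were lowest in replicate 5 and 3 of 5 highest in replicate 4. In control replicate 2 the members deviated from the other control libraries by 0.79 (median over members, log2 scale). The other Dlk1-Dio3 rows deviated there by a median of 1.01. In mutant replicate 5 the corresponding deviations were -0.71 for the members and -0.66 for the other Dlk1-Dio3 rows.

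Control replicate 2 was also the highest control, and above every mutant, in 3 of the 8 lists of cell type marker miRNAs. Its sum over 3 striated muscle miRNAs was 5638 normalised reads, against 268 to 559 in the other controls and 151 to 919 in mutants. Its 8 epithelial and biliary miRNAs summed to 48016, against 17575 to 25118 in other controls and 15903 to 21087 in mutants. Its 6 stellate and smooth muscle miRNAs summed to 369439, against 168823 to 240522 and 136276 to 249924. In the other 5 lists it lay within the range of the other controls, at 1620.4 for neural, 20912 for leukocyte, 5358 for erythroid and 152213 for endothelial miRNAs, and at 4292420 for hepatocyte ones. No row of these lists was at 0 in any library. Without this library the log2 difference of the summed members was 2.79, larger than with it, and the log2 fold change of miR-433 was 2.10.

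Calls in the lists of marker miRNAs are set beside all rows, of which 10.9% were higher. Of the 254 rows outside the listed domain miRNAs 1.18% were higher. Among 6 hepatocyte rows 1 was higher, miR-802 (log2 fold change 1.72, limma adjusted p = 0.000258). Among 7 neural rows 1 was higher, miR-137 (log2 fold change 0.90, limma adjusted p = 0.0395). The remaining lists held none past the threshold by limma. They had 3 striated muscle, 8 epithelial and biliary, 6 leukocyte, 3 erythroid, 2 endothelial and 6 stellate and smooth muscle rows. Median log2 fold changes were 0.02 for hepatocyte, -1.27 for striated muscle, -0.55 for neural, -0.71 for epithelial, -0.06 for leukocyte, 0.11 for erythroid, -0.05 for endothelial and -0.08 for stellate rows. Their most abundant rows were miR-122, miR-1a, miR-128, miR-203, miR-146a, miR-486, miR-126-3p and miR-143, with limma adjusted p from 0.424 (miR-143) to 0.961 (miR-126-3p). The neural list summed to between 1006 and 2071 normalised reads in controls and between 888 and 1477 in mutants, with overlapping groups.

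A list by name of the other Dlk1-Dio3 miRNAs, which includes the miR-379 to miR-410 cluster, gave 26 rows. Of these 23 were higher by limma, or 88.5%, with a median log2 fold change of 2.55, or 5.86-fold. In the 254 rows outside the listed miRNAs, 3 were higher and 6 lower, with a median of -0.09. Among the lower rows was miR-1247 (log2 fold change -1.95, limma adjusted p = 0.0250). It lies near Dio3 but is not on the list, so it counts as outside the domain throughout. The members made up 41.0 ± 3.16% of all Dlk1-Dio3 reads in control livers and 40.9 ± 2.44% in mutant livers (SD over 5 libraries). On the log2 scale the ratio of the members to the other domain miRNAs differed by -0.0038 ± 0.11 (SE) between genotypes. It ran from -0.69 to -0.26 in controls and from -0.63 to -0.28 in mutants.

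Within the 31 listed domain rows the members ranked 6 (miR-136), 8 (miR-434-5p), 12 (miR-127), 16 (miR-434-3p) and 28 (miR-433) by log2 fold change. The highest of the other rows were miR-376b at 3.13 ± 0.28, miR-665 at 3.00 ± 0.38 and miR-377 at 2.90 ± 0.45 (SE). The lowest were miR-323-3p at 1.28 ± 0.43, miR-495 at 1.31 ± 0.42 and miR-410 at 1.70 ± 0.41 (SE). Both ends of this order held rows of few reads. Control means were 5.64 normalised reads for miR-665 and 2.69 for miR-377, and 5.29 for miR-323-3p, 5.47 for miR-495 and 8.18 for miR-410.

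**Figure D5:**
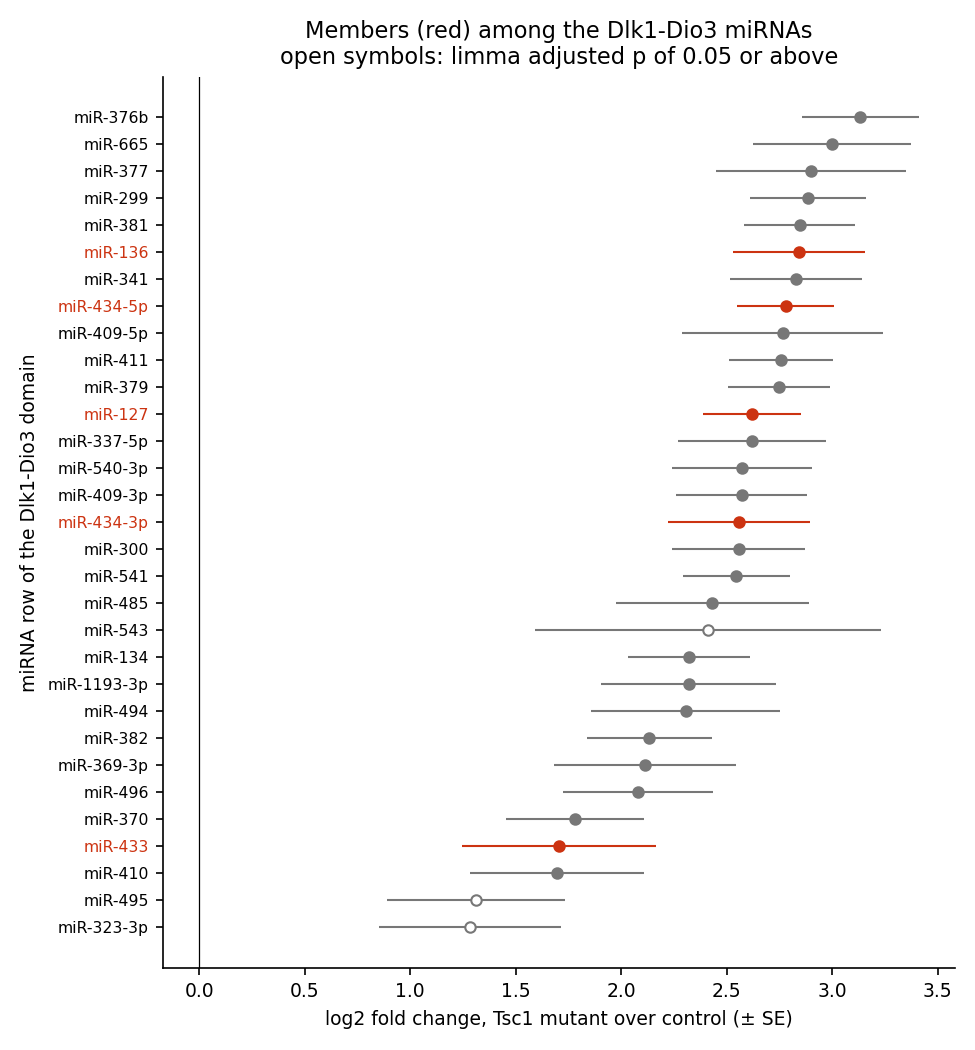
Log2 fold change (± SE) of the 31 listed Dlk1-Dio3 rows, mutant over control, with the 5 members in red. Open symbols mark a limma adjusted p of 0.05 or above. Members are spread through the range, and miR-433 at 1.70 lies near its low end.

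The miRNAs whose levels followed the summed members most closely between libraries were all from the same domain. With genotype means removed, over 10 libraries, the highest Pearson's r was 0.95 for miR-379, among rows whose mean was 20 normalised reads or more. It was followed by miR-541 at 0.91, miR-411 at 0.86, miR-409-3p at 0.82, miR-382 at 0.81 and miR-381 at 0.78. The median r was 0.68 over 21 domain rows and 0.02 over 219 rows outside the domain, where the highest was 0.62. These rows share libraries and scaling with the members.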

How the data were processed

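Libraries were made from total liver RNA (TRIzol) and read on an Illumina sequencer, as the labels' protocols state. The deposited values are a signal, miRNA reads that the authors normalised with a single factor for each library. DESeq, without version or role, is named for the authors' work in the submitters' processing notes, with aligner, annotation, build and filters not given in the sources used here. In each library 100% of values were whole multiples of 1 step within 0.001 reads, and division by it was taken to give the reads per library.

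Members, lists and tests were chosen with earlier results of these data known. Values were compared as log2(value + 1) with limma 3.58.1 in R 4.3.3, with an intensity trend and Benjamini-Hochberg adjustment over all rows. All 285 rows had a mean of at least 5. Arm ratios were compared with exact permutation tests over 252 splits. The fit was tested on simulated data. Named miRNAs are the members, the 3 highest and 3 lowest other domain rows, the 6 rows most like the summed members, neighbours in rank and the most abundant marker of each list. The marker rows called higher, miR-802 and miR-137, and the unlisted miR-1247 are named as well. Alternatives were other pseudocounts, filters, scalings, no trend, array weights, a replicate block and left-out libraries. Added after seeing the data were voom with the whole reads, and leaving out both libraries numbered 1, alone or with control replicate 2. Sequences are from RefSeq (GRCm38.p6) and GENCODE M21. Figures were drawn with matplotlib 3.10.9.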

Additional observations from a re-analysis of the deposited data

Results flagged for a closer look

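Of 30 groups of 5 values, 7 held a value far from the rest (Dixon's ratio of gap to range above 0.71), where chance gives about 1.5. The groups overlap, since sums and shares hold the same reads, so the 7 are not separate events.

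Control replicate 2 was the high library in 4 of them. It had 30.6 normalised reads of miR-433, against 10.1 in the next control, and miR-433 made up 1.29% of its summed members, against 0.583%. Its share of all miRNA reads was 0.0236% for miR-127, against 0.0135%, and 0.0275% for the summed members, against 0.0165%. Tsc1 mutant replicate 5 was the low mutant for the summed members, at 6278.5 normalised reads against 9872, and for their share of all miRNA reads, at 0.0673% against 0.107%. In Tsc1 mutant replicate 1 the members made up 45.2% of Dlk1-Dio3 reads, against 40.5% in the next mutant.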

How the results depend on the processing

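The log2 fold changes of all 5 members stayed above 0 in each setting in which they were tested, and those of miR-127, miR-136, miR-434-3p and miR-434-5p also passed the threshold in each. They ran from 2.42 to 2.79, 2.40 to 3.03, 2.29 to 2.72 and 2.69 to 2.91. That of miR-433 ran from 1.36 to 2.15 and its call was lost in 8 of 23 settings, all with 1 library left out. With 1 library left out, 4 to 5 members, 23 to 25 other domain rows and 28 to 34 of all rows passed as higher, and 2 to 10 of all rows lower. The summed members then differed by 2.50 to 2.79 and the miR-434 arm ratio by 0.10 to 0.41 on the log2 scale. A mean of at least 50 left 206 rows, of which 19 were higher and 3 lower, with 3 of 3 members and 14 of 15 other domain rows higher. Fewer rows were tested there, and miR-136 and miR-433 were not among them. That mean is over all 10 libraries, so a row below 50 in controls can pass through its mutant values. An example is miR-382, with means of 49.5 in controls and 210 in mutants. The shares called higher among rows that passed are therefore raised by the filter itself.

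Rows lower in mutants numbered 23 with array weights (where 40 were higher), 11 without both libraries numbered 1, and 13 without these and control replicate 2, against 6. The cause was not tested. With voom on whole reads, 31 rows were higher and 6 lower. Without the latter 3 libraries the miR-434 arm ratio differed by 0.47, with an exact permutation p of 0.0286 and an adjusted p of 0.357. That exact p is the smallest the remaining libraries allow. The adjusted p could fall below 0.05 only if most of the 25 miRNAs with both arms reached it.

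The replicate numbers are shared between groups, but nothing in the labels says that they pair livers. Deviations of same-numbered libraries had r from -0.02 to 0.81, above 0.1 in 3 of 5 pairs, and 4 of 10 libraries correlated best with their own number. With the replicate block 35 rows were higher and 10 lower, and all 5 members were higher. The miR-434 arm ratio then had an exact sign-flip p of 0.375, from a test that with 5 pairs cannot fall below 0.05. The planned count models (edgeR and DESeq2) on whole reads were not run, because too few low values per library were left for a further check of the recovered reads. The voom fit used the same reads. Depth limits miR-136 and miR-433, with as few as 6 reads per library.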
